A study of Mus musculus with 12 samples.

Results

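The genes described here are the growth hormone (GH), STAT5 and BCL6 axis of the liver, 10 genes of the 35275 in the deposited table of mouse liver expression. They were chosen by their place in the pathway, as its receptor, kinase, transcription factors, feedback inhibitors, secreted products and repressors, with earlier results of these data known. The difference of *Bcl6* between genotypes on chow was among those results. The members' values below are therefore a description. The members were in the fit across all genes, and whether that fit called a member is stated only to place it among all genes and supports nothing about it. The members are *Ghr*, *Jak2*, *Stat5a*, *Stat5b*, *Socs2*, *Cish*, *Igf1*, *Igfals*, *Bcl6* and *Cux2*, and 9 of the 10 reached the minimum level for the fit across all genes. *Cux2* did not.

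Liver RNA was sequenced from 12 mice. Wild-type (WT) and *Pctp*-/- (KO) mice were each fed chow or the MCD diet, which makes 4 groups of 3 mice. The KO mice lack PC-TP, the phosphatidylcholine transfer protein, in the whole body, so cells other than hepatocytes and organs other than the liver lacked it too. The MCD diet lacks methionine and choline and causes fatty, damaged liver. The study concerned male mice. The study's methods give an age and 2 lengths of fasting for its mice in general, without tying them to the mice sequenced here, and the time on the MCD diet is not given in the sources used here.

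GH is released by the pituitary and binds its receptor GHR on hepatocytes, where the kinase JAK2 phosphorylates STAT5A and STAT5B. Active STAT5 switches on *Igf1*, *Igfals* and the feedback inhibitors *Socs2* and *Cish*, and it lowers *Bcl6*, whose product is a repressor that binds DNA at many of the same sites. In mice GH comes in pulses in males and more evenly in females, and STAT5 with BCL6 and CUX2 keeps many liver genes at male-typical or female-typical levels.

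STAT5 binds DNA at the palindrome TTCNNNGAA, which reads the same on both strands, so the windows in which the letters stand near a start of transcription are shown first. RefSeq promoter windows (build GRCm38.p6, 250 bases before to 50 after a start) held 9 of the 10 members in 16 windows. *Socs2* had no window and was not searched. The motif stood in 5 of the 16 windows, from *Cish*, *Igfals* and *Bcl6*, while 8.30% of all 32851 windows of that length held it. The other searched members, *Igf1* among them, had no motif in their windows. Each line gives 30 bases 5′ to 3′ on the strand of the gene, with the motif in capitals.
*Cish*, chr9:107296654-107296683, plus strand: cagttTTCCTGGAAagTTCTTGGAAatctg
*Igfals*, chr17:24877598-24877627, plus strand: gatctataatTTCTCAGAAaagaggctgag
*Igfals*, chr17:24878163-24878192, plus strand: ctgccaggtgTTCCTAGAAgaggccctggg
*Bcl6*, chr16:23988951-23988980, minus strand: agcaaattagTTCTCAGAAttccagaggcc
*Bcl6*, chr16:23981432-23981461, minus strand: aggccgcggcTTCCTGGAAagttacttctc
*Bcl6*, chr16:23981386-23981415, minus strand: ggcaggagtgTTCTGTGAAatccttagagc
*Bcl6*, chr16:23981352-23981381, minus strand: atcgactacgTTCCGGGAAtgagagggctg
The pair of motifs of *Cish*, a feedback inhibitor, began at +1 and +12 from a start, where +1 is the start itself. They lay in an untranslated part of an exon. The motifs of *Igfals* began at -236 and -58 from 2 different starts, both in introns of the longer gene model of GENCODE M21. Of the 4 motifs of *Bcl6*, 1 began at -118 from the outer start, outside the gene. The other 3 began at -168, -122 and -88 from an inner start and lay in an intron. A window with 3 or more such motifs was rare, at 0.0335% of all windows. A match of letters is a description and not a site of binding, which was not measured here.

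The values are FPKM, fragments counted for a gene over its length and over the library's mapped fragments, as the authors deposited them. Fold changes are differences in log2(FPKM + 1) with their standard error (SE), which understate changes of genes at low FPKM. They come from one limma fit of the 4 groups over the 12466 genes that averaged 0.5 FPKM or more. A gene is called where its Benjamini-Hochberg adjusted p over all these genes was under 0.05. Values of 2 groups are said to be apart where the 3 mice of one group all lay above the 3 of the other. Uniquely mapped reads numbered 30486576 to 55179468 per library. They were 77.6 to 79.4% of reads on chow and 85.7 to 87.55% on MCD, so that diet and sequencing cannot be told apart. Genotypes were compared within a diet, where these percentages overlapped. The labels do not state whether the genotypes of a diet were processed together. *Pctp* itself was at 1.21 to 2.65 FPKM in WT and 0.330 to 0.566 in KO mice on chow, and at 3.61 to 7.90 and 0.156 to 0.329 on MCD, so that every KO mouse lay below every WT mouse. Of 10 hepatocyte markers none was at 0, and their summed FPKM was at least 44808 in each library.

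*Ghr*, the GH receptor, was lower on the MCD diet in both genotypes. In WT mice on chow its FPKM was 155, 135 and 135, and in KO mice on chow 150.1, 158 and 150.4. On MCD it was 77.5, 74.0 and 74.0 in WT and 102, 96.1 and 106 in KO mice. The chow groups overlapped, every MCD value lay below every chow value, and on MCD every KO value lay above every WT value. The mean in WT mice went from 142 ± 11.4 to 75.2 ± 1.97 FPKM (SD, n = 3), which is 1.88-fold lower on MCD (log2 difference -0.90, SE 0.08). In KO mice it went from 153 ± 4.18 to 101 ± 4.998 (SD, n = 3), which is 1.51-fold lower (-0.59, SE 0.08). The KO mean was 1.35-fold that of WT on MCD (0.42, SE 0.08) and 1.08-fold on chow (0.11, SE 0.08). This call on MCD was lost without any 1 of 10 of the 12 libraries (the difference stayed between 0.39 and 0.46), the exceptions being WT mouse 1 and KO mouse 1 on chow. In whole liver, fewer cells of a type and less RNA per cell cannot be told apart.

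*Jak2*, the kinase bound to the receptor, had a similar, low level in the 4 groups. Its FPKM ranged from 3.10 to 4.73 in WT and from 3.62 to 4.51 in KO mice on chow. On MCD it ranged from 3.85 to 4.86 in WT and from 4.40 to 4.88 in KO mice. Its values overlapped in each of the 4 comparisons of groups. The largest of its log2 differences was 0.17 (SE 0.13), for the diet in KO mice.

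Of the STAT5 genes, which are close paralogs side by side on chromosome 11, *Stat5b* was the more abundant. It was at 2.28 to 4.55 times the FPKM of *Stat5a* within a library, over all 12. *Stat5b* was at 18.7, 13.2 and 14.3 FPKM in WT and 22.8, 18.2 and 18.5 in KO mice on chow. On MCD it was at 12.5, 12.7 and 10.3 in WT and 11.8, 13.5 and 12.4 in KO mice. The genotypes overlapped on both diets, and within each genotype all MCD values lay below the chow values. The mean was 1.30-fold lower on MCD in WT (log2 difference -0.34, SE 0.14) and 1.58-fold lower in KO mice (-0.61, SE 0.14). The call in WT was lost without any 1 of 10 libraries (-0.44 to -0.20 over the 12 left out in turn), the exceptions being WT mouse 2 and KO mouse 1 of chow.

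*Stat5a* did not follow its neighbour in WT mice. It was at 4.12, 3.55 and 5.08 FPKM in WT and 5.89, 5.14 and 6.45 in KO mice on chow. The MCD values were 4.93, 5.57 and 4.06 in WT and 4.25, 4.02 and 3.62 in KO mice. The chow genotypes were apart by a narrow margin, since the lowest KO value was 5.14 and the highest WT value 5.08. The diet difference was 0.16 (SE 0.13) in WT, with overlap, and -0.46 (SE 0.13) in KO mice, with the groups apart. The *Stat5a* call in KO mice was lost without KO mouse 3 of chow or KO mouse 3 of MCD (-0.53 to -0.39 over the 12 left out in turn). The transcripts of *Stat5a* share 11.5% of their stretches of 31 bases with those of *Stat5b*, and *Stat5a* overlaps *Stat3* on the other strand. Both genes lie 10.8 to 10.9 Mb from *Pctp* on its own chromosome, and what part the knockout's linked region had in their values was not tested.

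**Figure D1:**
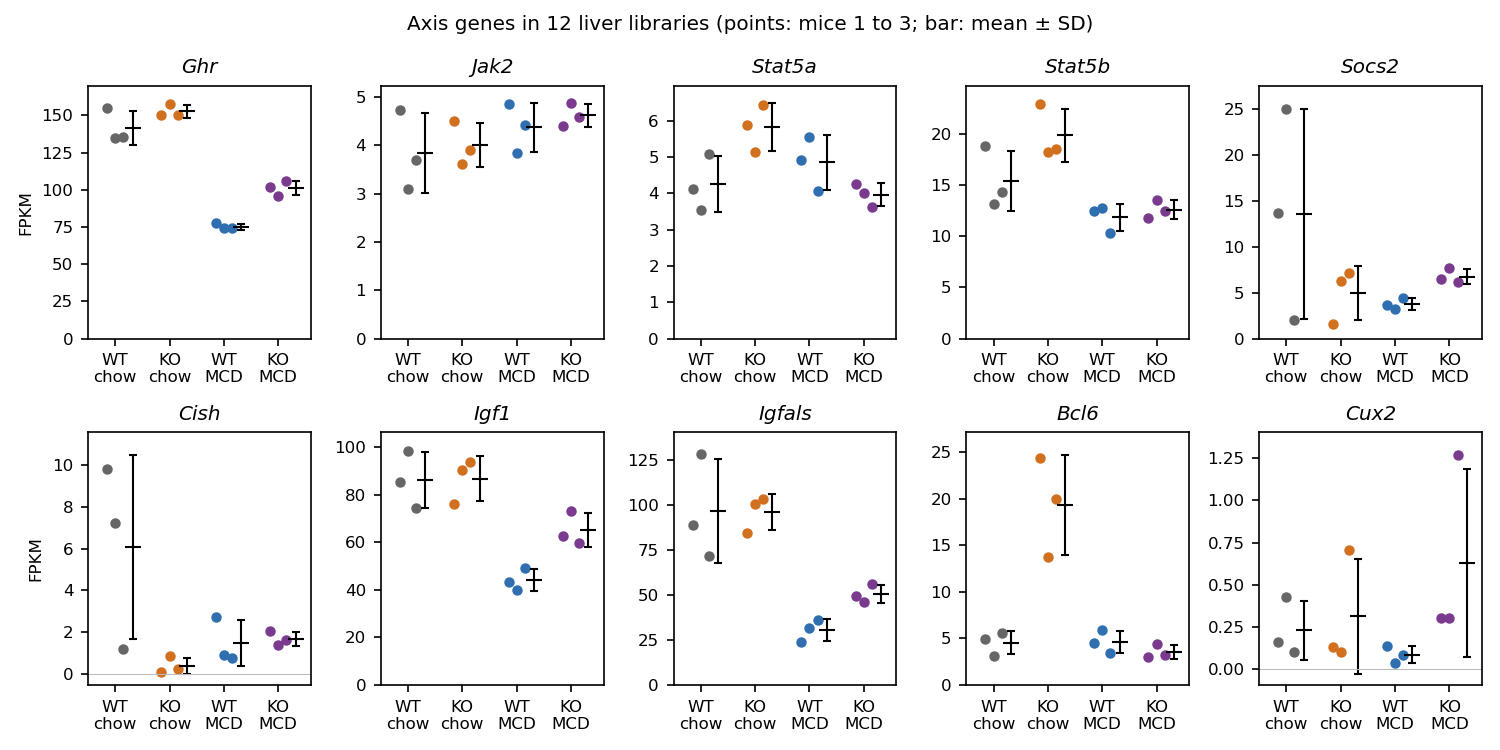
FPKM of the 10 axis genes (linear vertical axes from 0 or just below, a scale for each gene) in the 4 groups on the horizontal axis; points are mice 1 to 3 from left to right and bars are the mean ± SD (n = 3). *Ghr*, *Igf1* and *Igfals* sit lowest in WT mice on MCD, and the 3 KO mice on chow stand above the other 9 for *Bcl6*.

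*Socs2* and *Cish*, feedback inhibitors that STAT5 switches on and that damp the receptor, varied widely among mice of a group. *Socs2* was at 13.7, 25.03 and 2.05 FPKM in WT mice on chow, a 12.2-fold range within a group. It was at 1.59, 6.24 and 7.14 in KO mice on chow, 3.65, 3.24 and 4.43 in WT mice on MCD and 6.48, 7.64 and 6.15 in KO mice on MCD. On chow the genotypes overlapped, and the log2 difference of -0.98 (SE 0.62) went from -1.87 without WT mouse 3 to -0.32 without WT mouse 2. On MCD every KO value lay above every WT value, at 1.79-fold the mean (0.70, SE 0.62). *Socs2* was called in none of the 5 contrasts. Its diet difference in WT mice was -1.15 (SE 0.62) with overlap, and without WT mouse 3 of chow it was -2.04 and called.

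*Cish* had its lowest mean in KO mice on chow. It was at 9.80, 7.21 and 1.22 FPKM in WT mice on chow and at 0.116, 0.844 and 0.221 in KO mice on chow. On MCD it was at 2.74, 0.927 and 0.761 in WT and 2.05, 1.38 and 1.62 in KO mice. On chow the genotypes were apart, though WT mouse 3 and KO mouse 2 came close. The mean of 6.08 ± 4.40 FPKM (SD, n = 3) in WT was 15.4 times the 0.394 ± 0.394 (SD, n = 3) in KO mice. At so low a level in KO mice this ratio is imprecise. The log2 difference of -2.10 (SE 0.48) was not called in the fit of all 12 libraries, and it was called without WT mouse 3 of chow, at -2.79.

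On the MCD diet the *Cish* genotypes overlapped, and the diet differences pointed opposite ways. The diet difference was -1.32 (SE 0.48) in WT mice, which was called although the groups overlapped. It was 0.97 (SE 0.48) in KO mice, which was not called although the groups were apart, and it was called without WT mouse 3 of chow, with a pseudocount of 0.1 or with the libraries of the comparison alone. The call in WT was lost without WT mouse 1 (-0.87) or 2 of chow, or WT mouse 2 or 3 of MCD, and also with a pseudocount of 0.1 (-1.75), with no filter on low values or with the libraries of the comparison alone. The difference between the diet effects was 2.29 (SE 0.68), and it was called without WT mouse 3 of chow, at 2.99.

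*Igf1*, the hormone by which the liver carries GH's effect to other tissues, overlapped between the genotypes on chow and was lower on MCD. Its FPKM on chow was 85.6, 98.2 and 74.6 in WT and 76.1, 90.3 and 94.0 in KO mice. On MCD it was 43.5, 40.2 and 49.3 in WT and 62.8, 73.0 and 59.5 in KO mice. All MCD values lay below the chow values of their genotype, and on MCD the KO values lay above the WT values. The mean was 1.94-fold lower on MCD in WT (log2 difference -0.94, SE 0.13) and 1.33-fold lower in KO mice (-0.41, SE 0.13). The KO mean was 1.47-fold that of WT on MCD (0.54, SE 0.13), which was not called, and 1.01-fold on chow (0.01, SE 0.13). After quantile normalization the difference on MCD was 0.66 and was called. The call for the diet in KO mice was lost without KO mouse 2 or 3 of chow or KO mouse 1 or 3 of MCD (-0.50 to -0.35 over all 12 libraries left out).

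*Igfals*, whose product holds IGF1 in a long-lived complex in blood, was also lower on MCD. It was at 89.0, 128 and 71.8 FPKM in WT and 84.4, 100.4 and 103 in KO mice on chow. The MCD values were 23.7, 31.4 and 35.9 in WT and 49.3, 46.2 and 55.8 in KO mice. The mean was 3.18-fold lower on MCD in WT (log2 difference -1.61, SE 0.19) and 1.90-fold lower in KO mice (-0.91, SE 0.19). The KO mean was 1.66-fold that of WT on MCD (0.73, SE 0.19), with the groups apart and no call. Within a library, *Igfals* was at 0.962 to 1.31 times the FPKM of *Igf1* in the 6 chow libraries and at 0.546 to 0.937 times in the 6 MCD libraries. The differences between the diet effects of the genotypes were 0.53 (SE 0.18) for *Igf1*, 0.70 (SE 0.27) for *Igfals* and 0.31 (SE 0.11) for *Ghr*, and none of these 3 was called.

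*Bcl6*, the repressor that STAT5 lowers, was higher in KO than in WT mice on chow and overlapped between the genotypes on MCD. Its FPKM was 4.95, 3.15 and 5.54 in WT and 24.4, 13.7 and 20.03 in KO mice on chow. On MCD it was 4.54, 5.90 and 3.49 in WT and 3.06, 4.43 and 3.21 in KO mice. The 3 KO mice on chow stood above the other 9 mice, among whom the groups overlapped. The KO mean on chow was 19.4 ± 5.37 FPKM against 4.55 ± 1.24 in WT (SD, n = 3), 4.26-fold higher (log2 difference 1.87, SE 0.23). On MCD the means were 3.56 ± 0.751 and 4.64 ± 1.21 (SD, n = 3), with a difference of -0.30 (SE 0.23).

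The diet difference of *Bcl6* was 0.03 (SE 0.23) in WT and -2.13 (SE 0.23) in KO mice, and the difference between these was -2.16 (SE 0.33). With a library left out, the chow difference stayed between 1.67 and 2.08 and was called each time. It was 1.87 and not called with the 6 chow libraries alone in the fit. The difference of the diet effects ranged from -2.38 to -1.97 with a library left out. Its call was lost with a pseudocount of 0.1, with no filter on low values and after median-of-ratios scaling. It was also lost without WT mouse 2 or KO mouse 3 of chow, WT mouse 2 of MCD, or KO mouse 2 or 3 of MCD. *Bcl6* overlaps *Gm37419* on the other strand, as *Cish* does *Gm17040* and *Gm17041* and *Igf1* does *Igf1os*, and strand is not stated for the counting.

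**Figure D2:**
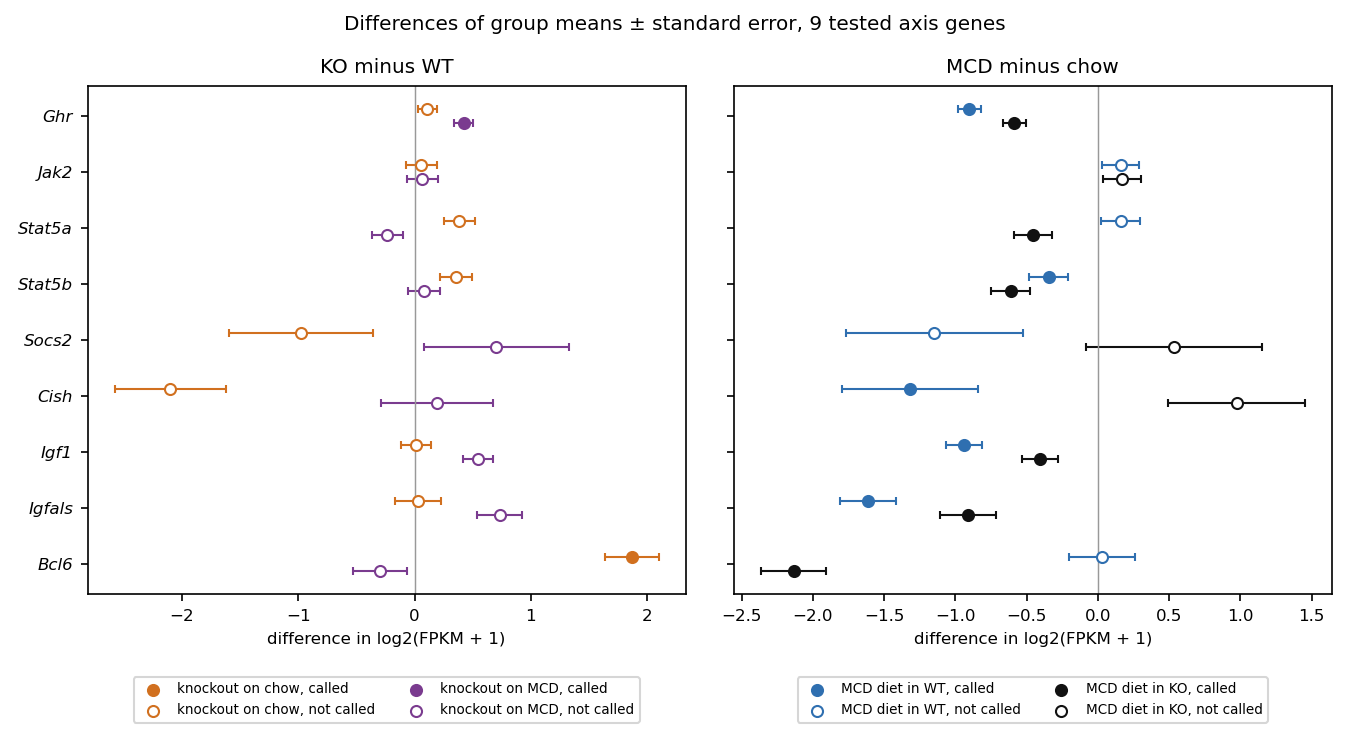
Differences of group means in log2(FPKM + 1) with bars of 1 SE for the 9 tested axis genes, KO minus WT at left and MCD minus chow at right; filled symbols were called across all tested genes and open ones were not. *Bcl6* lies at 1.87 for the knockout on chow and at -2.13 for the diet in KO mice, while its other 2 values lie within 0.30 of zero.

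*Bcl6* and *Cish*, which STAT5 moves in opposite directions, can be set side by side in each mouse. *Bcl6* was at 0.505 and 0.438 times the FPKM of *Cish* in WT mice 1 and 2 on chow and at 4.54 times in WT mouse 3. In KO mice on chow it was at 210, 16.2 and 90.7 times. *Cish* was at only 0.116, 0.844 and 0.221 FPKM in those mice, so the size and spread of these 3 ratios are imprecise. On MCD the ratio was 1.66 to 6.36 in WT and 1.49 to 3.21 in KO mice. In each chow group the mouse with the highest *Bcl6* (WT mouse 3 and KO mouse 1) was also the one with the lowest *Socs2*, *Cish*, *Igf1* and *Igfals*. On MCD it held for some of these genes: WT mouse 2 had the highest *Bcl6* with the lowest *Socs2* and *Igf1*, and KO mouse 2 had the highest *Bcl6* with the lowest *Cish* and *Igfals* but the highest *Socs2* and *Igf1*. This was noticed in 3 mice a group after the values were seen.

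**Figure D3:**
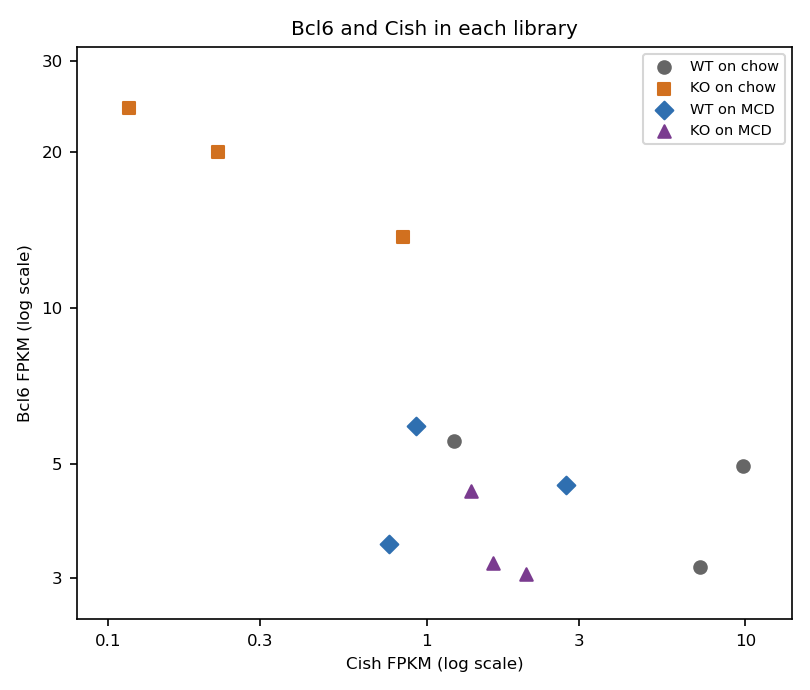
FPKM of *Bcl6* against FPKM of *Cish* in each of the 12 libraries, both on log axes, with a symbol and colour for each group. The 3 KO mice on chow lie at upper left, with *Bcl6* at 13.7 to 24.4 and *Cish* at 0.116 to 0.844 FPKM, and WT mouse 3 on chow lies among the MCD mice.

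*Cux2*, a repressor that is found at a higher level in female than in male mouse liver, was near the limit of detection. Its FPKM was 0.162, 0.431 and 0.105 in WT and 0.132, 0.101 and 0.706 in KO mice on chow. It was 0.140, 0.0375 and 0.0855 in WT and 0.307, 0.305 and 1.27 in KO mice on MCD. The genotypes were apart on MCD, where the KO mean was 7.16 times that of WT, and 1 mouse held most of that mean. Its mean over the 12 libraries was under the minimum of 0.5 FPKM for the fit. *Cux2* overlaps *Gm3970* and *Gm15637* on the other strand.

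The counts of members called are given beside the share of all tested genes called, and nothing is read from them because the members were chosen with these contrasts known. The knockout on chow called 1 of 9 higher (*Bcl6*) and 0 lower, while 0.0562% of all tested genes were called higher and 0.0802% lower. The knockout on MCD called 1 higher (*Ghr*) and 0 lower, against 0.297% and 0.521% of all genes. The MCD diet called 5 lower and 0 higher in WT mice, where 34.5% of all genes were called higher and 22.5% lower. It called 6 lower and 0 higher in KO mice, where 26.0% were called higher and 24.4% lower. For the difference of the diet effects, 1 member (*Bcl6*) was called lower, against 0.0401% of all genes higher and 0.0562% lower.

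Members with values apart numbered 2 higher and 1 lower for the knockout on chow, where 5.17% and 5.38% of all tested genes were apart. For the knockout on MCD they numbered 4 higher and 0 lower, where 5.50% and 21.1% were apart. For the diet they numbered 0 higher and 4 lower in WT, where 37.7% and 26.0% were apart, and 1 higher and 6 lower in KO mice, where 32.3% and 27.5% were apart. The median log2 difference of the 9 members was -0.90 for the diet in WT and -0.46 in KO mice, beside 0.11 and 0.04 for all tested genes. The 0.11 became 0.01 under quantile normalization, and 0.01 too when libraries were scaled by the median of ratios.

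Other genes of GH and related cytokine signalling were read from a list of 32 genes, JAKs, STATs, SOCS proteins, phosphatases and adaptors, of which 31 were tested. Of these, 0 were called for the knockout on either diet by limma, with 3 at an unadjusted p under 0.05 on chow and 6 on MCD. Among all 12466 tested genes, 870 on chow and 2026 on MCD had such a p for the knockout. Counts of this and the later lists stand beside these totals and the shares of all genes called given above. Of the 31, the diet raised 8 and lowered 9 in WT mice (median difference -0.04), and raised 4 and lowered 9 in KO mice (-0.14). Among the rises in WT were *Lepr*, the leptin receptor (log2 difference 0.76, SE 0.20, adjusted p = 0.00666 from limma), and *Jak1* (0.73). *Jak1* was also called in KO mice (0.57), where it went from 19.2 ± 1.35 to 29.0 ± 0.910 FPKM (SD, n = 3). In KO mice *Prlr*, the prolactin receptor, rose by 0.59 (SE 0.16, adjusted p = 0.0089 from limma), and *Ptpn2*, a phosphatase of JAK and STAT proteins, rose in both genotypes (0.70 in WT and 0.52 in KO mice).

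The falls in that list included several adaptors. *Irs2*, an adaptor of the insulin and IGF1 receptors, fell by 1.90 in WT and by 1.46 in KO mice. *Sh2b3*, an adaptor that restrains JAK2, fell by 1.08 (SE 0.12, adjusted p = 1.83e-05 from limma) in WT and by 1.06 in KO mice. *Sh2b2*, a further adaptor of that family, fell by 0.89 in KO mice. *Socs3*, a feedback inhibitor of STAT3 and of GH signalling, fell by 1.48 (SE 0.22, adjusted p = 1.45e-04 from limma) in WT mice. *Socs3* was at 14.7, 12.1 and 6.89 FPKM in WT and 3.68, 4.27 and 5.28 in KO mice on chow, so that the genotypes were apart and WT mouse 3 was again the lowest WT mouse. Its chow difference was -1.13 (SE 0.22, adjusted p = 0.102 from limma), and it was looked at after its values were seen.

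Of 16 other genes of the IGF system, 10 were tested, and the knockout called 0 on either diet in limma (1 at an unadjusted p under 0.05 on each). The diet raised 1 and lowered 4 in WT mice, with medians of 0.01 in WT and -0.28 in KO mice, where it raised 0 and lowered 3. *Igfbp4*, an inhibitory binding protein of IGFs, went from 687 ± 52.5 to 326 ± 22.2 FPKM (SD, n = 3) in WT (log2 difference -1.07, SE 0.10, adjusted p = 5.24e-06 from limma) and from 636 ± 69.4 to 367 ± 19.96 (SD, n = 3) in KO mice (-0.79). *Igfbp1*, a binding protein that rises in fasting, was at 21.3, 112 and 113 FPKM in WT mice on chow and at 244, 313 and 145 on MCD (1.76, SE 0.61, adjusted p = 0.0257 from limma). It was at 326, 198 and 131 FPKM in KO mice on chow and at 93.5, 237 and 77.5 on MCD, where the diet groups overlapped. *Insr*, the insulin receptor, fell in WT mice (-0.44), *Igfbp7* in KO mice (-0.75), and *Htra1*, a protease of IGF binding proteins, in WT and KO mice (-0.49 and -0.43). *Igfbp5*, the other gene lowered in WT, was at 2.62 FPKM on chow and 0.910 on MCD, with overlap.

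The corepressors that BCL6 recruits, with its relatives of the same protein family, made a list of 14 genes, all tested. The knockout called 0 of them on either diet in limma, with 1 and 0 at an unadjusted p under 0.05. The diet raised 1 and lowered 4 in WT (median -0.04), and raised 2 and lowered 5 in KO mice (-0.15). *Zbtb7a*, a repressor of the same zinc finger family, fell in both (-0.96 and -0.98), as did *Bcorl1*, a relative of the BCL6 corepressor (-0.95 in WT and -0.51 in KO mice), and *Zbtb7b* (-0.45 and -0.62). *Tbl1xr1*, a subunit of a corepressor complex, rose by 0.48 in WT and 0.77 in KO mice, and *Ncor1* rose by 0.31 in KO mice (adjusted p = 0.0485 from limma). Over these 3 lists, 0 of 55 genes were called for the difference of the diet effects in limma. An unadjusted p under 0.05 was found for 9 of them, and for 1884 of all 12466 tested genes.

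Genes whose liver level differs by sex, which GH and STAT5 are known to set, moved with the diet in both genotypes. Of 22 male-typical genes tested, the diet lowered 22 in WT and 19 in KO mice and raised 0, with median log2 differences of -2.18 and -1.75. Of 29 female-typical genes, 24 were tested, and the diet raised 22 in WT and 24 in KO mice and lowered 0, with medians of 2.10 and 3.54. These lists were written with earlier results of these data known, and many of their genes are close paralogs that can share reads. The genes not called were *C4a*, *Mup11* and *Selenbp2* (male-typical, in KO mice) and *Acot3* and *Acot4* (female-typical, in WT mice).

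Among the male-typical genes, *Mup3*, a major urinary protein, was at 6258 ± 993 FPKM (SD, n = 3) on chow and 247 ± 49.6 on MCD in WT mice (log2 difference -4.66, SE 0.15, adjusted p = 2.56e-09 from limma). In KO mice it went from 6202 ± 438 to 484 ± 19.96 (SD, n = 3). *Susd4* fell by 3.94 in WT and by 3.63 in KO mice. *Mup21* (-3.66 in WT and -2.91 in KO mice) and *Elovl3*, a fatty acid elongase (-3.64 and -4.48), fell in both genotypes too. *Mup3* was also the only male-typical gene called for the knockout on MCD (0.99, SE 0.15, adjusted p = 0.0136 from limma), being higher in KO mice.

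Among the female-typical genes, *Cyp3a44* rose by 6.24 in WT and 6.57 in KO mice, *Cyp2b9* by 5.87 and 5.28, and *Cyp2a4*, a steroid hydroxylase, by 5.77 and 6.78. The knockout on MCD raised 4 of the 24 and lowered 0 (median 0.62, beside -0.09 for all tested genes). Among them were *Sult3a1* (3.01, SE 0.49, adjusted p = 0.0171 from limma), *Cyp3a41a* (2.51) and *Sult3a2* (2.25). The count was 1 with a pseudocount of 0.1, 1 with the MCD libraries alone in the fit, and 2 with no filter on low values and 2 without KO mouse 2 or 3 of MCD. Neither list had a gene called for the knockout on chow in limma, where 2 male-typical and 3 female-typical genes had an unadjusted p under 0.05.

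**Figure D4:**
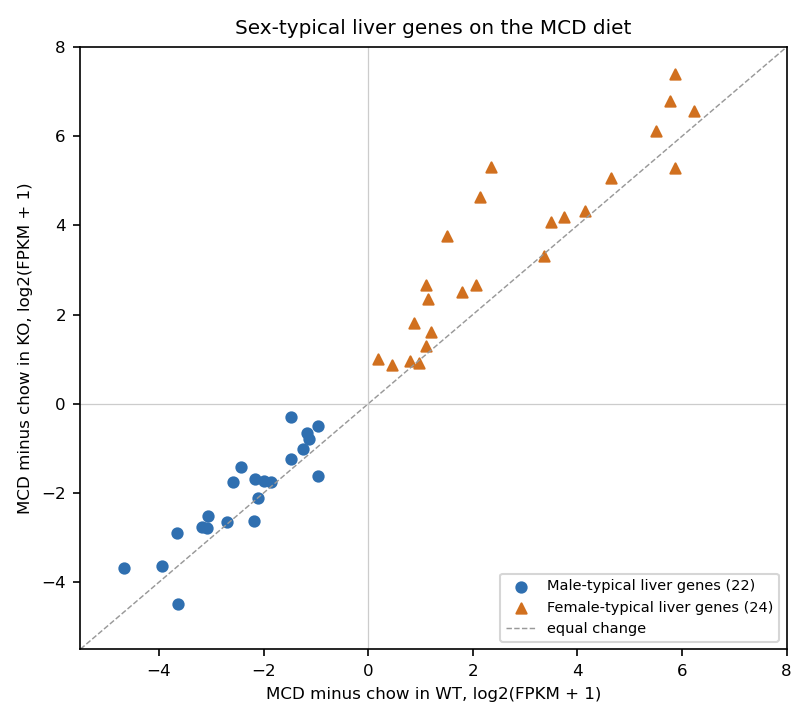
Diet difference (MCD minus chow, log2(FPKM + 1)) in WT mice on the horizontal and in KO mice on the vertical axis for 22 male-typical and 24 female-typical liver genes, with a dashed line of equal change; the 2 axes share no libraries. The male-typical genes lie below zero and the female-typical genes above zero on both axes, with medians of -2.18 and -1.75 and of 2.10 and 3.54.

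Other cell types and states moved with the same groups, and their part in the values of the axis was not tested. The summed FPKM of 10 Kupffer cell and macrophage markers was 74.5 to 124 in WT and 65.0 to 175 in KO mice on chow, and 289 to 550.0 and 299 to 367 on MCD. *Lyz2* alone went from a mean of 19.9 to 211 FPKM in WT and from 23.9 to 191 in KO mice. Of 9 tested, the diet raised 8 in WT and 5 in KO mice. The 8 stellate cell and fibroblast markers summed to 33.6 to 61.2 FPKM in chow libraries and 138 to 202 in MCD libraries, with 4 raised in WT and 3 in KO mice. *Dcn* alone made up most of these sums, with means of 31.8 and 135 FPKM on chow and MCD in WT mice. In KO mice its means were 35.5 and 128. The diet differences of 2 of the 8 markers were below 0 in each genotype, among them *Col1a1* (-0.17) and *Acta2* (-0.11) in WT mice, neither called. Of 7 endothelial markers the diet raised 3 in WT and 0 in KO mice (sums of 45.0 to 72.9 on chow, and on MCD 62.9 to 78.8 in WT and 55.6 to 62.6 in KO mice, with the genotypes apart). For the knockout on MCD, the fitted differences of 7 of 7 endothelial and 9 of 9 macrophage markers were below 0. The median of all tested genes was below 0 as well, at -0.09. Of these markers, 4 endothelial and 2 macrophage ones were apart and lower, against 21.1% of all tested genes. Of 4 cholangiocyte markers tested the diet raised 1 in WT and lowered 1 in KO mice (10.6 to 19.5 and 13.7 to 25.5). Of 4 lymphocyte markers it raised 1 in each (2.14 to 5.68 and 5.06 to 8.82). No marker of these lists was at 0 in all 12 libraries, and the knockout called 0 of them on either diet in limma. The 10 hepatocyte markers summed to 44808 to 50489 on chow. On MCD they summed to 57978 to 65676 in WT and 73528 to 79815 in KO mice, so that the sums of the genotypes were apart. *Ghr*, *Igf1*, *Igfals* and *Socs2* were also apart and higher in KO mice in that contrast. *Alb* alone made up most of these sums, with means of 43899 FPKM in WT and 57218 in KO mice on MCD. Taken singly, 3 of the markers were apart and higher in KO mice on MCD and 0 lower, against 5.50% and 21.1% of all tested genes. Of the 10, the diet raised 1 and lowered 4 in WT mice, and raised 2 and lowered 4 in KO mice.

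Of 19 clock genes tested, 3 were called lower and 0 higher for the knockout on chow, against 0.0802% and 0.0562% of all tested genes. *Bcl6*, *Cish* and *Stat5a* were apart in this contrast, and all 3 were apart for the diet in KO mice too. In limma 15 of the 19 clock genes had an unadjusted p under 0.05 for the knockout on chow, as did 870 of all 12466 tested genes. Values were apart and lower in KO mice for 11 and higher for 3, against 5.38% and 5.17% of all tested genes. The 3 higher were *Arntl* (log2 difference 1.20, SE 0.28), *Npas2* (0.81) and *Nfil3* (0.93), none of them called. *Dbp*, a clock output factor, was at 39.5, 98.3 and 86.0 FPKM in WT and 5.58, 9.85 and 5.64 in KO mice on chow (log2 difference -3.18, SE 0.54, adjusted p = 0.0492 from limma). *Per3* fell by 1.86 and *Bhlhe41* by 1.69. The count of clock genes called lower was 0 without any 1 of WT mouse 2 or 3 or KO mouse 1, 2 or 3 of chow. It was also 0 without any 1 of WT mouse 2 or 3 or KO mouse 2 of MCD. It was 1 without WT mouse 1 of MCD and 6 without WT mouse 1 of chow, and 0 after either scaling. The WT mouse with the lowest *Dbp* was mouse 1 and the one with the lowest *Cish* was mouse 3. The diet raised 2 clock genes and lowered 11 in WT mice, and raised 2 and lowered 4 in KO mice. Of 17 genes that respond to fasting and insulin, the knockout called 0 on either diet (2 and 3 at an unadjusted p under 0.05). The diet raised 4 and lowered 8 in WT, and raised 5 and lowered 8 in KO mice.

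The genes with the pattern most like that of *Bcl6*, *Socs2* and *Cux2* were found by the root mean square difference of their values over the 12 libraries, each gene scaled to a mean of 0 and an SD of 1. Nearest to *Bcl6* were *Lrfn3* (0.356), *Pnrc1* (0.420), *Tap2* (0.498), *Tbx3* (0.502) and *Mcu* (0.509). *Lrfn3* was at 7.49 to 8.07 FPKM in KO mice on chow and at 1.73 to 4.22 in the other 9 mice, and *Pnrc1* at 107 to 134 and 39.6 to 73.9. Both were picked for likeness to *Bcl6* in these same libraries, so standing high in the same 3 follows from the choice and is a description.

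Nearest to *Socs2* was *Gm9847* (0.261), a processed pseudogene at chr12:14494561-14495159 on the plus strand (GRCm38). It shares 83.7% of its stretches of 31 bases with transcripts of *Socs2*, so the reads of these 2 could have been split between them and the *Socs2* values are uncertain to that extent. *Gm9847* was at 5.77, 11.9 and 0.648 FPKM in WT mice on chow, in the order of *Socs2*. Next came *B4galt1* (0.509), *Gm2788* (0.513), *Wdr45b* (0.546) and *Gm13829* (0.576), which share no such stretch with it. Among the nearest to *Cux2* were *Gm8883* (0.597), *Brip1* (0.622), *2610021A01Rik* (0.631) and *Pts* (0.633). Each was highest in KO mouse 3 on MCD, the library that held the highest *Cux2*, which likewise follows from how they were picked.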

How the data were processed

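Liver RNA of 12 mice was sequenced, and the authors deposited FPKM for each gene in each library, with a second table of read totals and quality measures (other units, whole reads and percentages), which was used here for depth only. Per the labels the genome build was mm10. The aligner, the counter and the annotation are not given in the sources used here. Groups came from the labels, and no pair of libraries held identical values. FPKM are not counts, so a linear model of log2(FPKM + 1) with 4 group means and a mean-variance trend was fitted by limma (3.58.1, R 4.3.3). All 12 libraries entered it, and 12466 genes averaging 0.5 FPKM or more were tested. Benjamini-Hochberg adjustment covered all of them, and an adjusted p under 0.05 was the threshold, with no minimum fold change. The script was tested on simulated data. The p-values rest on a spread between mice pooled over all 4 groups and drawn toward the trend across genes. Where the spread differed by group they fit less well. For *Socs2* the SD was 84.6% of the mean in WT mice on chow and 11.6% in KO mice on MCD.

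The members and the gene lists were chosen with earlier results of these data known. Besides the members, up to 3 rises and 3 falls per list and contrast were named, from called genes with values apart, as were the 5 genes most like *Bcl6*, *Socs2* and *Cux2* and, as a check, *Pctp*. Some genes that this rule names are not reported here. The lists were GH signalling, the IGF system, BCL6 corepressors, male-typical and female-typical genes, clock, fasting and insulin, and 6 sets of cell markers. Symbols and positions came from GENCODE M21 (GRCm38) and promoter sequences from RefSeq (GRCm38.p6). The alternatives were the pseudocount, the filter, the scaling, the libraries fitted, a replicate block, the trend and leaving out each library. Figures were drawn with matplotlib version 3.10.9.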

Additional observations from a re-analysis of the deposited data

Results flagged for a closer look

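The fitted effect of MCD differed between the genotypes for 2 of the genes described, and neither is separate evidence of that difference. For *Bcl6* the effect in KO mice minus that in WT mice was -2.16 on the log2 scale (SE 0.33), with all 3 KO mice lower on MCD than on chow and the WT mice overlapping. *Bcl6* was chosen with this result known, so the value is a description, and it was called in 11 of 19 alternatives. For *Cyp3a41a*, a female-typical cytochrome P450, the difference was 2.51 (SE 0.31). *Cyp3a41a* is listed at 0 in all 6 chow libraries and passed the minimum level through the MCD groups alone, so this number is the same as its difference between genotypes on MCD. It was at 4.97, 2.13 and 3.56 FPKM in WT and 20.7, 33.4 and 19.9 in KO mice on MCD. It has close paralogs whose reads the counting could have split. Groups of 3 mice are too small for a test of single outlying samples.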

How the results depend on the processing

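Over 20 alternatives (19 for the difference of the diet effects), the count of axis genes called for the knockout on chow (1) was 0 with the libraries of the comparison alone and 1 to 2 with a library left out. For the knockout on MCD (1) it was 2 after quantile normalization, 0 without the trend, 0 with the libraries of the comparison alone and 0 to 1 with a library left out. For MCD in WT (5) it was 3 with no filter on low values, 3 with the libraries of the comparison alone and 3 to 5 with a library left out. For MCD in KO mice (6) it was 4 to 7 throughout. For the difference of the diet effects (1) it was 0 with a pseudocount of 0.1, 0 with no filter, 0 after median-of-ratios scaling and 0 to 2 with a library left out. Of other GH, IGF and BCL6 pathway genes, the knockout on chow (0) gave 0 to 1 with a library left out, and the knockout on MCD (0) gave 1 with its libraries alone. The diet counts of these genes (27 in WT and 23 in KO mice) were 18 to 29 and 16 to 25. The cause of these moves was not tested. No called difference of an axis gene changed sign. Replicate numbers name different mice: same-number libraries had correlations of deviations of -0.097 to 0.225, over 0.1 in 8 of 18 pairs. With the replicate block, the axis genes called numbered 1 and 1 for the knockout on chow and on MCD, 5 and 6 for the diet in WT and KO mice and 1 for the difference, and those of the other pathway genes 0, 0, 29, 24 and 0. Clock genes lower on chow numbered 7 with the block and 3 without it. Precision is limited by 3 mice a group, and low genes such as *Cux2* and *Cish* by depth.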
